A study of Mus musculus with 18 samples.

Results

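The nuclear pore and nuclear transport receptor genes were followed through a 30 h course of induced red cell maturation. They were taken by gene symbol: nucleoporins named Nup with a number, exportins (Xpo), importins (Ipo), karyopherins (Kpna and Kpnb), transportins (Tnpo), and Ran, Rangap1, Ranbp1, Rcc1 and Cse1l. This gave 46 of the 18193 genes with a probe set of their own, and all 46 were among the 12719 genes bright enough to be tested. Where a gene had several probe sets, it was read from the probe set whose mean over the 18 arrays was highest.

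The study measured RNA of mouse G1E-ER4 cells on 18 Affymetrix arrays, 3 at each of 0, 3, 7, 14, 21 and 30 h. G1E-ER4 is a cell line grown from mouse embryonic stem cells whose Gata1 gene was disrupted, and it carries GATA1 fused to the ligand-binding part of an estrogen receptor. Every group therefore shares the Gata1 disruption and the fusion protein, and the 5 later groups also had 20 nM estradiol, which activates the fusion. Cells left untreated for matching hours were not analysed here, and effects of estradiol, of GATA1 and of longer culture cannot be told apart. A result from this design describes 1 cell line, and the 3 arrays of a time are labelled as biological replicates with no word on separate cultures. The spread behind each p-value is that between these samples and may be technical.

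Nuclear pores are channels through the nuclear envelope built from nucleoporins. The Y complex and the inner ring form the scaffold, nucleoporins with phenylalanine-glycine repeats fill the channel, and others sit on the cytoplasmic face, on the nuclear basket or in the membrane. Importins carry proteins in and exportins carry cargo out, and the small GTPase Ran sets the direction: Rcc1 loads Ran with GTP on chromatin, while Rangap1, helped by Ranbp1, triggers GTP hydrolysis in the cytoplasm. Maturing red cell precursors stop dividing, shrink and condense their nucleus, and mammals then expel it.

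The cells' label was checked against marker genes. For comparison, 36.6% of all tested genes rose and 33% fell at 30 h versus 0 h (limma, adjusted p under 0.05). At 30 h versus 0 h, 6 of 9 tested erythroid markers rose and 0 fell, led by Alas2, the first enzyme of heme synthesis in red cells, at 6.49 and Slc4a1, the band 3 anion exchanger, at 6.08 on the log2 scale. Of the markers of other blood cells, 1 of 6 mast cell and basophil markers rose and 3 fell, and the mean level of that list lay between 4.50 and 4.67 on the 0 h arrays and between 3.10 and 3.30 on the 30 h arrays. Of megakaryocyte markers 2 of 5 rose and 2 fell (list mean 5.57 to 5.61 at 0 h, 4.89 to 5.04 at 30 h), of granulocyte and macrophage markers 2 of 4 rose and 1 fell (3.06 to 3.32, then 3.19 to 3.35), and of lymphoid markers 2 of 5 rose and 0 fell (3.36 to 3.52, then 3.51 to 3.69). The gap between the 3′ and 5′ probe sets of the Actb control, a sign of RNA quality, was 1.89 ± 0.084 (SD, n = 3) at 0 h and 2.20 ± 0.11 at 30 h, and that of Gapdh was 1.13 ± 0.065 and 1.52 ± 0.16. The part of these marker and RNA quality differences in the results that follow was not tested. In bulk RNA, fewer cells of a type and less of an RNA per cell cannot be told apart.

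Transport and pore genes mainly fell, and the fall became broad late in the course. At 30 h versus 0 h, 34 of the 46 genes fell and 5 rose (limma, adjusted p under 0.05 over all tested genes), where 33% of all tested genes fell and 36.6% rose. The same 34 genes were those whose 3 arrays at 30 h all lay below the 3 at 0 h, a pattern found in 34.6% of all tested genes. The median log2 difference was -0.60 for the 46 genes and 0.09 for all tested genes. Of the 34, 16 were at least 2-fold lower, against 13.1% of all tested genes, while 0 members were at least 2-fold higher, against 9.16%. Over the whole course, 41 of 46 members changed by the F test, where 74.3% of all tested genes did.

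The earlier times had fewer calls. At 3 h versus 0 h, 4 members rose and 7 fell, against 11.2% and 14.7% of all tested genes, and the members' median was -0.05 beside -0.02 for all tested genes. At 7 h 2 rose and 14 fell (15.3% and 16.3% of all tested genes), at 14 h 2 rose and 23 fell (22.2% and 22.7%), and at 21 h 6 rose and 25 fell (31.4% and 28.6%). The medians at 7, 14 and 21 h were -0.12, -0.15 and -0.21, beside 0.004, 0.02 and 0.07 for all tested genes. Between 14 h and 30 h, 33 members fell and 5 rose, against 28.5% and 28.4% of all tested genes, with a median of -0.42 beside 0.06. The mean was lowest at 30 h for 32 of the 46 genes and highest at 0 h for 20 and at 3 h for 12. These comparisons share the 0 h or 14 h arrays and are not independent of each other.

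Some of the smaller counts depended on single arrays. At 3 h, the 4 rises became 2 without 0 h replicate 1, 0 h replicate 2, 3 h replicate 2 or 3 h replicate 3, and the 7 falls became 3 without 0 h replicate 1, 3 h replicate 1 or 3 h replicate 3 and 4 without 3 h replicate 2. At 7 h the 2 rises became 1 without 0 h replicate 1 or 3 or 7 h replicate 2 or 3, and the 14 falls became 8 without 0 h replicate 1. The rises went from 2 to 1 at 14 h without 14 h replicate 3, from 6 to 3 at 21 h without 0 h replicate 2 and to 2 without 21 h replicate 1, and from 5 to 3 at 30 h versus 14 h without 30 h replicate 3. The 34 falls at 30 h stayed at 34 without any 1 array.

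The scale of the deposited values matters for small changes. When arrays were instead shifted so that the means of their 18 hybridisation controls (spiked bacterial and phage sequences) were equal, the median difference of all tested genes moved by 0.23 at 14 h and by 0.20 at 30 h. On that scale 21 members fell and 5 rose at 30 h, against 20.3% and 39.3% of all tested genes, and the medians were -0.40 for members and 0.30 for all tested genes. The 13 genes that lost their call at 30 h were Cse1l, Ipo7, Ipo8, Kpna2, Kpna3, Nup160, Nup214, Nup54, Nup62, Nup98, Ran, Tnpo3 and Xpo1. At 3 h 0 members rose and 0 fell on that scale (3.64% and 2.24% of all tested genes), at 7 h 0 and 1 (4.31% and 5.13%), at 14 h 1 and 2 (21.9% and 6.38%), and at 21 h 0 and 16 (18.9% and 18.3%). The means of these controls ranged from 11.67 to 12.12 over the 3 arrays at 0 h. The members' median changed sign on that scale at 3 h, to 0.05, and at 14 h, to 0.08. Between 14 h and 30 h 23 members fell and 0 rose on it (19% and 12.9% of all tested genes).

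**Figure D1:**
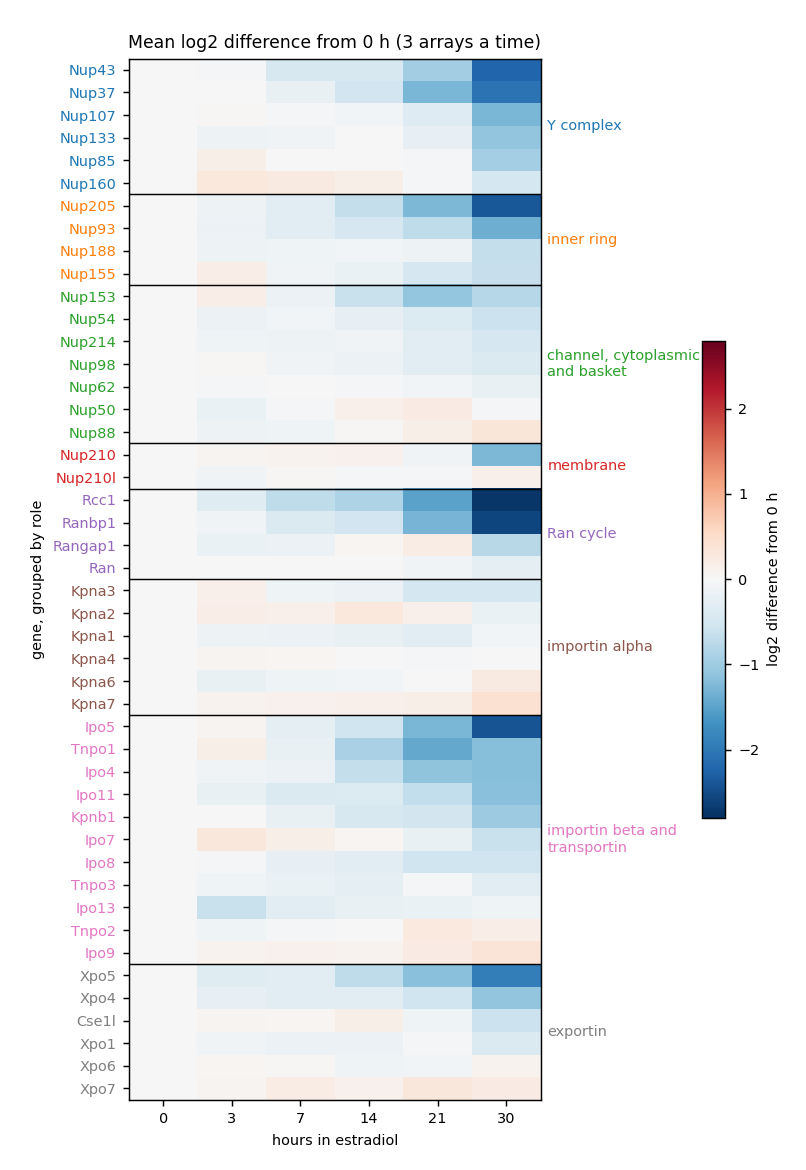
Colour shows the mean log2 difference from 0 h (3 arrays a time) on the deposited scale for each of the 46 genes, in rows grouped by role, against hours in estradiol in columns. Rcc1 (-2.73) and Ranbp1 (-2.57) reach the deepest blue at 30 h. The importin alpha rows stay within -0.50 and 0.42 on the probe sets used. Probe sets not drawn gave -1.20 and -0.96 for Kpna3, -0.88 for Kpna4 and 0.83 for Kpna6 at 30 h. On the control scale the sign turns for 18 genes at 14 h (12 above 0 as drawn, 30 on that scale). At 30 h it turns for 5 (8 above 0 as drawn, 13 on that scale).

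All 4 members of the Ran cycle fell at 30 h, with a median of -1.68 on the log2 scale. Beside this and each role group below stand the shares of all tested genes at 30 h, 33% lower and 36.6% higher. Rcc1 encodes the exchange factor that charges Ran with GTP on chromatin. Rcc1 read 10.84, 10.78 and 10.79 at 0 h, 10.45, 10.52 and 10.43 at 3 h, 10.17, 10.11 and 10.005 at 7 h, 9.99, 9.86 and 9.99 at 14 h, 9.24, 9.30 and 9.36 at 21 h and 8.004, 8.07 and 8.13 at 30 h. The mean of Rcc1 was lower at each time than at the time before, and its 0 h arrays overlapped those of no later time. Rcc1 fell by 2.73 at 30 h on the log2 scale, 6.65-fold (SE 0.0613, limma, adjusted p = 3.35e-15). It was already -0.34 at 3 h (limma, adjusted p = 0.000765, but 0.655 on the control scale), -0.70 at 7 h, -0.85 at 14 h and -1.51 at 21 h, all 3 of these also called on the control scale.

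Ranbp1 binds Ran-GTP and helps Rangap1 act on it. Ranbp1 read 11.36, 11.38 and 11.03 at 0 h, 11.27, 11.05 and 11.14 at 3 h, 10.80, 11.001 and 10.78 at 7 h, 10.76, 10.62 and 10.78 at 14 h, 9.79, 10.002 and 10.09 at 21 h and 8.69, 8.80 and 8.59 at 30 h. The 3 h arrays overlapped those at 0 h, and from 7 h on every array lay below the 3 at 0 h. Ranbp1 fell by 2.57 at 30 h on the log2 scale, 5.93-fold (SE 0.104, limma, adjusted p = 2.77e-12). Its difference was -0.54 at 14 h, and from 14 h to 30 h it fell by 2.03 (limma, adjusted p = 1.65e-10).

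Rangap1, the GTPase-activating protein of Ran, took another course. Its mean differed from 0 h by 0.06 at 14 h, and at 30 h it fell by 0.78 (SE 0.0801, limma, adjusted p = 2.38e-07). Its difference of 0.20 at 21 h passed the threshold (adjusted p = 0.0424) and missed it without 0 h replicate 1 (0.0696), 2 (0.0601) or 3 (0.118) or 21 h replicate 1 (0.0614) or 3 (0.164).

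Ran itself is the GTPase that all these factors serve. Ran read 13.14, 13.10 and 13.12 at 0 h, 13.13, 13.13 and 13.14 at 3 h, 13.09, 13.14 and 13.09 at 7 h, 13.08, 13.12 and 13.12 at 14 h, 13.05, 13.04 and 13.0002 at 21 h and 12.82, 12.91 and 12.84 at 30 h. The arrays of 0 to 14 h overlapped, and the 3 arrays at 30 h were the lowest of the 18. Ran fell by 0.26 at 30 h on the log2 scale, 1.2-fold (SE 0.0444, limma, adjusted p = 7.62e-05). On the control scale its difference was -0.06 (adjusted p = 0.81). These values are of a probe set whose name ends in _x_at. Over the 5 tested probe sets of Ran the 30 h difference lay between -1.35 and -0.17 on the deposited scale.

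**Figure D2:**
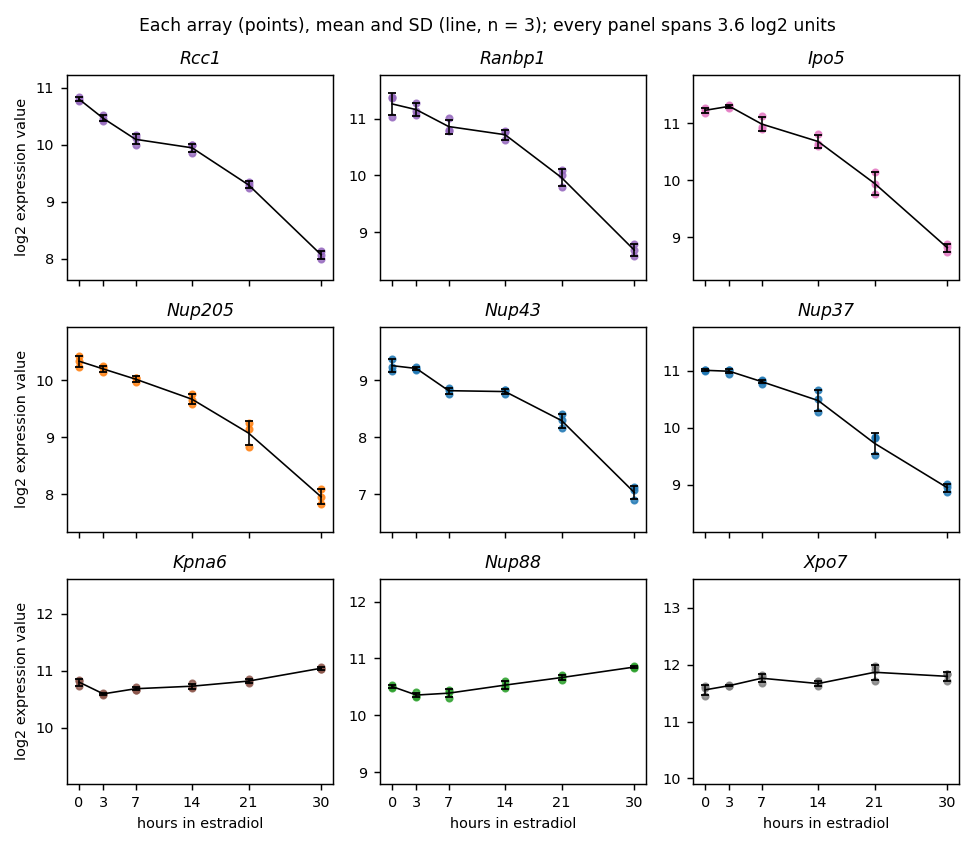
Points show the log2 expression value of each array and lines the mean with SD (n = 3) against hours in estradiol, for the 6 genes with the largest falls and 3 genes that rose at 30 h; every panel spans 3.6 log2 units. Rcc1 drops from between 10.78 and 10.84 at 0 h to between 8.004 and 8.13 at 30 h, while Kpna6 ends between 11.02 and 11.07.

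The upstream DNA of 3 of the most lowered genes is printed. Among the 6 largest falls at 30 h, these were the genes with exactly 1 start site among the promoters searched. RefSeq promoters (mouse build GRCm38.p6) were found for 37 of the 46 genes, 44 promoters in all, and the 250 bases before the start site were searched on both strands. The motifs were CACGTG, the E-box that MYC family proteins bind, TTCCCGC, a form of the E2F site (GCGGGAA on the other strand), and AGATAA, a form of the GATA site (TTATCT on the other strand). None of these motifs contains another. Letters in capitals mark a match, and each sequence runs 5′ to 3′ toward the gene. Rcc1 is on the minus strand at chr4:132345751-132346000, Ranbp1 on the minus strand at chr16:18248695-18248944 and Nup205 on the plus strand at chr6:35177366-35177615.
Rcc1: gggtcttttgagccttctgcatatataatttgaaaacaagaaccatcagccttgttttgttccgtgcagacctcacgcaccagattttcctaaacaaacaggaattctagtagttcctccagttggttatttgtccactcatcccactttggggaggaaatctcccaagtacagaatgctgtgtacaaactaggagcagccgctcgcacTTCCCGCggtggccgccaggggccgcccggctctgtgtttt
Ranbp1: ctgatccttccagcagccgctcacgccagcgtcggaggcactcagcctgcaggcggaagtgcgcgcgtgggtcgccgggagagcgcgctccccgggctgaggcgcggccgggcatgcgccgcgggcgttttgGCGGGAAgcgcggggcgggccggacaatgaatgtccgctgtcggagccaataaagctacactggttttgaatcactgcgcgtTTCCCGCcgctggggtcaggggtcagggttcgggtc
Nup205: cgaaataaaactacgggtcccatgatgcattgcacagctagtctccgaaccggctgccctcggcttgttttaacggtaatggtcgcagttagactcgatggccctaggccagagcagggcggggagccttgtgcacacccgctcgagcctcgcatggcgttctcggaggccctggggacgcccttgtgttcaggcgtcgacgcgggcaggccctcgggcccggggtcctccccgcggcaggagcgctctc
The Rcc1 window holds 1 match to TTCCCGC, that of Ranbp1 holds 2, and that of Nup205 holds 0 matches to any of the 3 motifs. TTCCCGC was found in 5 of the 44 member promoters (11.4%; Nup107, Nup210, Ranbp1, Rcc1 and Tnpo1), against 3.82% of all 32851 promoters. CACGTG was found in 6 (13.6%; Ipo7, Nup188, Nup54, Nup93, Ran and Tnpo2) against 6.02%, and AGATAA in 3 (6.82%; Ipo5, Kpna7 and Tnpo3) against 9.99%. A match is a run of letters and was not tested as a binding site.

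The symbol rule took in 6 genes of the Y complex, the outer scaffold of the pore, and these 6 fell at 30 h, with a median of -1.20. Of the complex's genes with other names, Seh1l was -0.70 at 30 h (limma, adjusted p = 2.65e-09), Sec13 was 0.08 (adjusted p = 0.329) and Ahctf1 was 0.22 (adjusted p = 0.00406). The courses of the 6 members differed. Nup37 (-0.53) and Nup43 (-0.46) had already fallen by 14 h on the deposited scale (-0.30 and -0.23 on the control scale, adjusted p = 0.24 and 0.393), while Nup107, Nup133, Nup85 and Nup160 differed from 0 h by between -0.07 and 0.16 at 14 h, with 0 of these 4 called at that time.

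Nup43 and Nup37 are small subunits of the Y complex. Nup43 read 9.38, 9.23 and 9.16 at 0 h, 9.23, 9.18 and 9.21 at 3 h, 8.76, 8.87 and 8.83 at 7 h, 8.83, 8.75 and 8.82 at 14 h, 8.17, 8.29 and 8.41 at 21 h and 7.07, 6.90 and 7.12 at 30 h. The arrays of 7 and 14 h overlapped each other, below those of 0 h, and those of 30 h stood lowest. Nup43 fell by 2.23 at 30 h on the log2 scale, 4.68-fold (SE 0.0751, limma, adjusted p = 3.14e-13). Nup37 read 10.99, 11.02 and 11.02 at 0 h, 11.02, 11.01 and 10.95 at 3 h, 10.83, 10.82 and 10.78 at 7 h, 10.28, 10.50 and 10.66 at 14 h, 9.82, 9.83 and 9.52 at 21 h and 8.87, 9.01 and 8.96 at 30 h. Its 0 h and 3 h arrays overlapped, and each later time lay wholly below 0 h. Nup37 fell by 2.06 at 30 h on the log2 scale, 4.18-fold (SE 0.0906, limma, adjusted p = 6.93e-12).

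Nup107 is a core subunit of the Y complex, in the stem on which the pore's outer rings are assembled. Nup107 read 9.28, 9.11 and 9.01 at 0 h, 9.19, 9.13 and 9.19 at 3 h, 9.10, 9.15 and 9.02 at 7 h, 9.12, 8.96 and 9.10 at 14 h, 8.86, 8.73 and 8.72 at 21 h and 7.84, 7.88 and 7.84 at 30 h. Through 14 h its arrays overlapped with those of 0 h, and the 3 arrays at 30 h lay below every array of the other times. Nup107 fell by 1.28 at 30 h on the log2 scale, 2.42-fold (SE 0.0701, limma, adjusted p = 1.07e-10). At 21 h it had been -0.36 (adjusted p = 0.000299, and 0.166 on the control scale). Nup133 (-1.11 at 30 h) and Nup85 (-0.95), also scaffold subunits, had values of 0.0019 and -0.02 at 14 h.

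Nup160 also belongs to the Y complex and moved both ways, with a timing that differed between its probe sets. Nup160 read 10.60, 10.60 and 10.64 at 0 h, 10.91, 10.91 and 10.93 at 3 h, 10.86, 10.81 and 10.90 at 7 h, 10.74, 10.87 and 10.70 at 14 h, 10.59, 10.70 and 10.42 at 21 h and 10.13, 10.18 and 10.07 at 30 h. All 3 arrays at 3 h lay above all 3 at 0 h, those of 21 h overlapped 0 h, and those of 30 h were lowest. Nup160 rose by 0.30 at 3 h (SE 0.067, limma, adjusted p = 0.00333) and stood at -0.48 at 30 h (adjusted p = 7.94e-06). On the control scale these were 0.40 (adjusted p = 0.284) and -0.28 (adjusted p = 0.199). The other tested probe set of Nup160 was at 0.12 at 3 h (limma, adjusted p = 0.642 over all tested probe sets). It was at 0.48 at 14 h (adjusted p = 0.0235), 0.63 at 21 h (0.00272) and -0.41 at 30 h (0.0302).

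All 4 members of the inner ring, which lines the channel wall, fell at 30 h, with a median of -1.02. Nup205, a large scaffold protein of this ring, fell furthest. Nup205 read 10.42, 10.24 and 10.34 at 0 h, 10.24, 10.21 and 10.14 at 3 h, 10.05, 10.05 and 9.97 at 7 h, 9.59, 9.76 and 9.66 at 14 h, 9.25, 9.14 and 8.83 at 21 h and 7.82, 7.95 and 8.08 at 30 h. The arrays of 3 h overlapped those of 0 h and those of each later time lay below. Nup205 fell by 2.38 at 30 h on the log2 scale, 5.22-fold (SE 0.0947, limma, adjusted p = 2.12e-12). Nup93, its partner in the ring, was -1.36 and Nup188, a relative of Nup205, was -0.67.

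Nup155, the inner ring subunit that contacts the membrane side, was the ring's gene with a rise at 3 h on the probe set used. Nup155 read 11.19, 11.20 and 11.39 at 0 h, 11.41, 11.46 and 11.50 at 3 h, 11.19, 11.07 and 11.20 at 7 h, 11.03, 11.21 and 10.99 at 14 h, 10.80, 10.83 and 10.75 at 21 h and 10.61, 10.61 and 10.65 at 30 h. The lowest 3 h array, 11.41, lay just above the highest 0 h array, 11.39, and those of 21 and 30 h lay below. The rise of 0.19 at 3 h (limma, adjusted p = 0.0487) was lost without 0 h replicate 1 (adjusted p = 0.175), 0 h replicate 2 (0.15), 3 h replicate 1 (0.063), 3 h replicate 2 (0.111) or 3 h replicate 3 (0.158). The fall of 0.64 at 30 h had an SE of 0.0682 (adjusted p = 3.98e-07). Other probe sets of Nup155 differed by -0.03 and -0.16 at 3 h (limma, adjusted p = 0.836 and 0.436 over all tested probe sets). At 30 h these were at -1.23 and -1.37. With the mean of probe sets, the rise at 3 h was not called.

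Of 7 nucleoporins of the channel, the cytoplasmic face and the basket, 5 fell and 1 rose at 30 h, between -0.80 and 0.34 on the probe sets used. The other probe set of Nup214 gave a larger fall (-1.73, where the used gave -0.46). For Nup54 the other tested probe sets gave -1.07, -0.51, -0.28 and -0.07, where the used gave -0.60. Those of Nup153 gave smaller falls (-0.22 and -0.45, where the used gave -0.80). Nup98 is a repeat nucleoporin of the channel that also binds genes in the nucleus. Nup98 read 11.42, 11.56 and 11.58 at 0 h, 11.51, 11.57 and 11.57 at 3 h, 11.40, 11.43 and 11.47 at 7 h, 11.27, 11.42 and 11.36 at 14 h, 11.29, 11.23 and 11.10 at 21 h and 11.14, 11.09 and 11.14 at 30 h. The 30 h arrays lay below those of 0 h, and the 3 h and 7 h arrays overlapped 0 h. Nup98 fell by 0.40 at 30 h on the log2 scale, 1.32-fold (SE 0.062, limma, adjusted p = 2.7e-05). On the control scale the 30 h difference was -0.20 (adjusted p = 0.372).

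Nup153, a basket nucleoporin, had its lowest mean at 21 h on the probe set used (-1.08, against -0.80 at 30 h). Its other probe sets were at -0.25 and -0.41 at 21 h and at -0.22 and -0.45 at 30 h. Nup54 (-0.60) and Nup62 (-0.20), channel nucleoporins, and Nup214 (-0.46), on the cytoplasmic face, fell at 30 h on the deposited scale. Nup50, a basket-associated factor that helps release importin alpha cargo, differed by -0.05 at 30 h (adjusted p = 0.431) after 0.23 at 21 h. These values are of the probe set used. Another was at -0.38 at 21 h and -0.63 at 30 h (limma, adjusted p = 0.0237 and 0.000648 over all tested probe sets). A further probe set of Nup50 was at 0.09 and -0.12 (adjusted p = 0.247 and 0.128).

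Nup88, the cytoplasmic partner of Nup214, went the other way. Nup88 read 10.54, 10.49 and 10.50 at 0 h, 10.40, 10.34 and 10.33 at 3 h, 10.45, 10.41 and 10.31 at 7 h, 10.48, 10.52 and 10.60 at 14 h, 10.70, 10.67 and 10.62 at 21 h and 10.83, 10.87 and 10.85 at 30 h. The arrays of 3 and 7 h lay below those of 0 h, and those of 21 and 30 h above them. Nup88 rose by 0.34 at 30 h on the log2 scale, 1.27-fold (SE 0.0534, limma, adjusted p = 2.95e-05). From 14 h to 30 h it rose by 0.32 (adjusted p = 9.54e-05, and 0.276 on the control scale).

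Nup210, a membrane-spanning nucleoporin, fell late. Nup210 read 11.36, 11.29 and 11.31 at 0 h, 11.36, 11.43 and 11.37 at 3 h, 11.43, 11.48 and 11.38 at 7 h, 11.43, 11.43 and 11.46 at 14 h, 11.21, 11.17 and 11.26 at 21 h and 9.94, 10.11 and 10.17 at 30 h. All arrays through 14 h lay at or above the lowest array of 0 h, those of 21 h just below it, and those of 30 h far lower. Nup210 fell by 1.25 at 30 h on the log2 scale, 2.38-fold (SE 0.0591, limma, adjusted p = 1.71e-11). Its mean at 14 h had been 0.12 from 0 h and at 21 h -0.11, neither called. Nup210l, a relative of Nup210, differed by 0.15 at 30 h (adjusted p = 0.203).

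**Figure D3:**
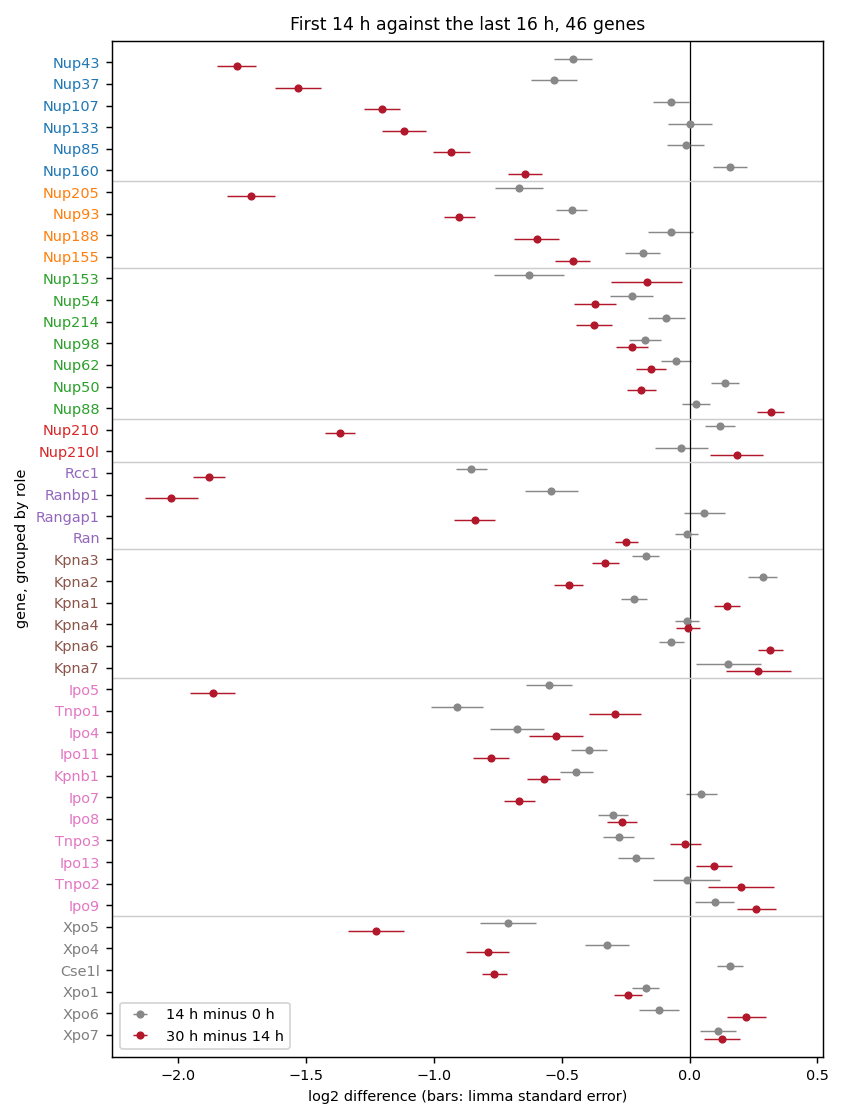
Points show the log2 difference of 14 h from 0 h (grey) and of 30 h from 14 h (red) for each of the 46 genes, with bars for the limma standard error. Nup107, Nup133, Nup85 and Nup210 lie near 0 for the first interval and between -1.37 and -0.93 for the second; both intervals share the 14 h arrays, and on the control scale 30 of the 46 grey points would lie above 0, among them Nup107 (0.16), Nup133 (0.23), Nup85 (0.21) and Nup210 (0.35).

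Importin alpha proteins are adaptors that hold cargo with a classical nuclear localization signal. On the probe sets used, 2 of 6 members fell and 2 rose at 30 h, with a median of -0.04. Of all tested genes, 33% fell and 36.6% rose. Kpna2 is an importin alpha that is abundant in dividing cells. Kpna2 read 11.56, 11.56 and 11.67 at 0 h, 11.69, 11.80 and 11.86 at 3 h, 11.78, 11.66 and 11.75 at 7 h, 11.83, 11.94 and 11.88 at 14 h, 11.73, 11.74 and 11.77 at 21 h and 11.40, 11.44 and 11.40 at 30 h. Its 14 h arrays were the highest, apart from an overlap with those of 3 h, and its 30 h arrays were the lowest of the 18. Kpna2 stood at 0.29 at 14 h (SE 0.0571, limma, adjusted p = 0.000628), at -0.19 at 30 h (adjusted p = 0.00851), and fell by 0.47 between those times (adjusted p = 2.86e-06). On the control scale its 30 h difference turned to 0.02 (adjusted p = 0.947), while the fall from 14 h was -0.50 (adjusted p = 0.0385).

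Kpna6 is an importin alpha of another subfamily. Kpna6 read 10.84, 10.83 and 10.73 at 0 h, 10.62, 10.59 and 10.58 at 3 h, 10.67, 10.72 and 10.66 at 7 h, 10.71, 10.70 and 10.78 at 14 h, 10.86, 10.82 and 10.78 at 21 h and 11.07, 11.02 and 11.04 at 30 h. The 3 h arrays were the lowest and the 30 h arrays the highest, with no overlap of either with 0 h. Kpna6 fell by 0.21 at 3 h (limma, adjusted p = 0.00563; 0.884 on the control scale) and rose by 0.24 at 30 h (SE 0.0491, adjusted p = 0.000351; 0.042 on the control scale).

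Kpna7 is an importin alpha best known from oocytes and early embryos. Kpna7 read 5.42, 5.40 and 5.41 at 0 h, 5.62, 5.52 and 5.42 at 3 h, 5.53, 5.65 and 5.39 at 7 h, 5.37, 5.68 and 5.63 at 14 h, 5.52, 5.599 and 5.61 at 21 h and 5.47, 6.12 and 5.90 at 30 h. The 3 arrays at 30 h lay above 0 h but spread widely, and replicate 1 lay within the range of the arrays of 3 to 21 h. The rise of 0.42 at 30 h (SE 0.127, limma, adjusted p = 0.00819) was 0.28 without 30 h replicate 2, with an adjusted p of 0.0559. Kpna3 fell by 0.50 at 30 h, and Kpna1 and Kpna4 differed by -0.07 and -0.01 there (adjusted p = 0.222 and 0.806). Other probe sets of Kpna3 were at -1.20 and -0.96 at 30 h, and the other of Kpna4 at -0.88. The 5 tested probe sets of Kpna1 lay between -0.24 and 0.18.

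Of the 11 importins of the beta family and transportins, 8 fell and 1 rose at 30 h, with a median of -0.62. Kpnb1 encodes importin beta, the carrier that takes importin alpha and its cargo through the pore. Kpnb1 read 11.79, 11.77 and 11.92 at 0 h, 11.83, 11.79 and 11.86 at 3 h, 11.62, 11.60 and 11.62 at 7 h, 11.39, 11.47 and 11.29 at 14 h, 11.37, 11.27 and 11.33 at 21 h and 10.70, 10.91 and 10.83 at 30 h. The 3 h arrays overlapped those of 0 h, and from 7 h on all arrays lay below. Kpnb1 fell by 1.01 at 30 h on the log2 scale, 2.02-fold (SE 0.0655, limma, adjusted p = 8.17e-10).

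Ipo5, a carrier of ribosomal proteins and histones among other cargo, fell furthest of this group on the probe sets used, while with the mean of each gene's probe sets Kpnb1 (-2.10) fell further than Ipo5 (-1.74). Ipo5 read 11.26, 11.23 and 11.18 at 0 h, 11.26, 11.30 and 11.32 at 3 h, 10.90, 10.94 and 11.12 at 7 h, 10.81, 10.63 and 10.59 at 14 h, 9.75, 10.14 and 9.94 at 21 h and 8.87, 8.83 and 8.74 at 30 h. The 3 h arrays lay at or above those of 0 h, those of 7 h lay below, and those of 30 h were the lowest of the 18. On its other probe sets the 3 h differences were -0.23 and -0.51 (limma, adjusted p = 0.0288 and 0.0209 over all tested probe sets). Ipo5 fell by 2.41 at 30 h on the log2 scale, 5.33-fold (SE 0.0892, limma, adjusted p = 9.28e-13). From 14 h to 30 h Ipo5 fell by 1.87 (adjusted p = 7.06e-11).

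Ipo7 also imports ribosomal proteins and histones. Ipo7 read 10.19, 10.17 and 10.21 at 0 h, 10.45, 10.56 and 10.50 at 3 h, 10.39, 10.32 and 10.36 at 7 h, 10.25, 10.24 and 10.22 at 14 h, 10.12, 9.96 and 9.89 at 21 h and 9.63, 9.49 and 9.59 at 30 h. On the probe set used, the 3 h arrays were the highest of the 18 and the 30 h arrays the lowest. Other probe sets of Ipo7 differed by 0.02 and 0.17 at 3 h (limma, adjusted p = 0.942 and 0.500 over all tested probe sets). At 14 h these were at -0.45 and -0.30, and at 30 h at -1.26 and -0.96. With the mean of probe sets, the rise at 3 h was not called. Ipo7 rose by 0.31 at 3 h (SE 0.0612, limma, adjusted p = 0.00138; 0.272 on the control scale) and at 30 h was -0.62 (adjusted p = 1.57e-07; 0.0566 on the control scale).

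Ipo13, a carrier that works in both directions, was low at 3 h. Ipo13 read 7.67, 7.49 and 7.63 at 0 h, 7.005, 6.99 and 6.95 at 3 h, 7.34, 7.36 and 7.22 at 7 h, 7.25, 7.43 and 7.48 at 14 h, 7.44, 7.32 and 7.48 at 21 h and 7.45, 7.49 and 7.51 at 30 h. The 3 arrays at 3 h were the lowest of the 18, and those of 30 h overlapped 0 h. Ipo13 fell by 0.62 at 3 h on the log2 scale, 1.53-fold (SE 0.0707, limma, adjusted p = 1.01e-05). It differed by -0.21 at 14 h, which turned to 0.02 on the control scale, where the 3 h difference was -0.52 (adjusted p = 0.124). At 30 h the difference was -0.11 (adjusted p = 0.162).

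Ipo9, an importin of histones, rose late. Ipo9 read 9.39, 9.19 and 9.18 at 0 h, 9.31, 9.37 and 9.40 at 3 h, 9.31, 9.37 and 9.45 at 7 h, 9.31, 9.40 and 9.35 at 14 h, 9.62, 9.48 and 9.37 at 21 h and 9.69, 9.51 and 9.65 at 30 h. The 30 h arrays lay above those of 0 h, while the 21 h arrays overlapped 0 h. Ipo9 rose by 0.36 at 30 h on the log2 scale, 1.28-fold (SE 0.0762, limma, adjusted p = 0.000558). Its rise from 14 h to 30 h was 0.26 on this probe set, whose name ends in _s_at, and -0.10 on the probe set used when such names are left out.

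Tnpo1, which imports RNA-binding proteins, was lowest at 21 h on the probe set used, at -1.44, and stood at -1.20 at 30 h. Its other probe sets were at -0.38 and -0.07 at 21 h and at -0.39 and 0.03 at 30 h. Ipo4, another importin, was at -1.13 at 21 h and -1.20 at 30 h, and Ipo11 at -0.68 and -1.17. Ipo8 (-0.56) and Tnpo3 (-0.29), the carrier of serine-arginine splicing factors, fell at 30 h on the deposited scale, and Tnpo2 differed by 0.19 (adjusted p = 0.207).

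Of 6 exportins, 4 fell and 1 rose at 30 h, between -1.93 and 0.24. Xpo5 exports precursors of microRNAs. Xpo5 read 8.39, 8.37 and 8.62 at 0 h, 8.16, 8.21 and 8.02 at 3 h, 8.15, 8.21 and 8.11 at 7 h, 7.66, 7.85 and 7.74 at 14 h, 7.49, 7.37 and 7.01 at 21 h and 6.41, 6.51 and 6.66 at 30 h. Every array after 0 h lay below the 3 at 0 h, and those of 30 h were the lowest. Xpo5 fell by 1.93 at 30 h on the log2 scale, 3.82-fold (SE 0.109, limma, adjusted p = 1.55e-10). Its fall of 0.33 at 3 h (adjusted p = 0.0357) was lost without 0 h replicate 1 (adjusted p = 0.0552), 0 h replicate 3 (0.137), 3 h replicate 1 (0.065), 3 h replicate 2 (0.051) or 3 h replicate 3 (0.141). Xpo4, another exportin, was -1.11 at 30 h.

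Xpo1 is the general exporter of proteins with a leucine-rich export signal. Xpo1 read 11.67, 11.67 and 11.67 at 0 h, 11.56, 11.57 and 11.60 at 3 h, 11.51, 11.49 and 11.55 at 7 h, 11.53, 11.48 and 11.49 at 14 h, 11.64, 11.56 and 11.69 at 21 h and 11.27, 11.16 and 11.34 at 30 h. The 21 h arrays overlapped those of 0 h, and the 30 h arrays were the lowest. Xpo1 fell by 0.41 at 30 h on the log2 scale, 1.33-fold (SE 0.0534, limma, adjusted p = 3.77e-06). On the control scale the 30 h difference was -0.21 (adjusted p = 0.35), and that at 14 h turned from -0.17 to 0.06.

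Cse1l returns importin alpha to the cytoplasm. Cse1l read 10.64, 10.64 and 10.65 at 0 h, 10.71, 10.75 and 10.70 at 3 h, 10.74, 10.66 and 10.67 at 7 h, 10.78, 10.80 and 10.83 at 14 h, 10.50, 10.60 and 10.49 at 21 h and 9.98, 10.10 and 10.05 at 30 h. The 14 h arrays were the highest of the 18 and the 30 h arrays the lowest. Cse1l fell by 0.60 at 30 h on the log2 scale, 1.52-fold (SE 0.0506, limma, adjusted p = 2.04e-08). The fall from 14 h was 0.76 (adjusted p = 2.97e-09), and on the control scale it was -0.79 (adjusted p = 0.000584) while the 30 h difference from 0 h was -0.40 (adjusted p = 0.067).

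Xpo7 is an exportin abundant in red cell precursors, where it is known for a part in nuclear condensation. Xpo7 read 11.59, 11.62 and 11.46 at 0 h, 11.63, 11.63 and 11.63 at 3 h, 11.68, 11.78 and 11.82 at 7 h, 11.62, 11.67 and 11.71 at 14 h, 11.97, 11.91 and 11.72 at 21 h and 11.84, 11.71 and 11.83 at 30 h. The 30 h arrays lay above those of 0 h and overlapped those of 7 and 21 h. Xpo7 rose by 0.24 at 30 h on the log2 scale, 1.18-fold (SE 0.0699, limma, adjusted p = 0.00683). Its probe sets did not move alike: at 30 h the differences of its 5 tested probe sets were 0.70, 0.57, 0.24, -0.21 and -0.34. With the mean of all its own probe sets, among them some too dim to be tested, the rise was 0.10 (adjusted p = 0.172). Xpo6, which exports actin, differed by 0.10 at 30 h (adjusted p = 0.249).

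**Figure D4:**
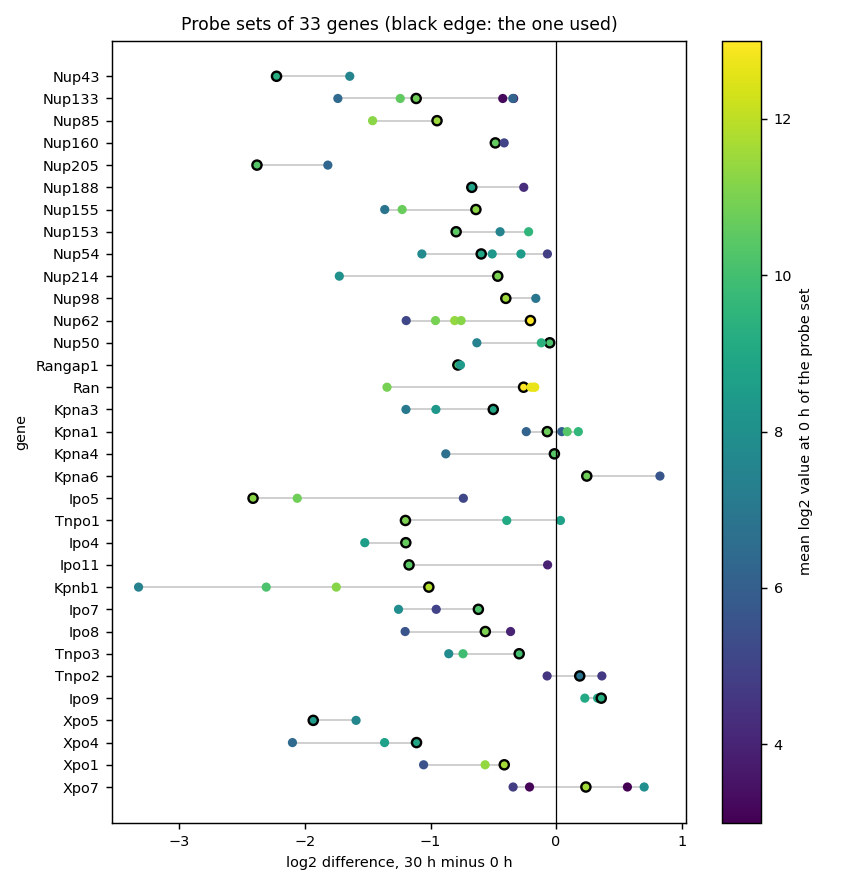
Each point is a tested probe set of the 33 genes with more than 1, placed by its log2 difference of 30 h from 0 h and coloured by its mean log2 value at 0 h; a black edge marks the probe set used for the gene. Kpnb1 spans -3.33 to -1.01 and Xpo7 spans -0.34 to 0.70, on both sides of 0.

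At 30 h versus 0 h, the probe sets of a gene often differed in size but seldom in sign. Of the 33 genes with more than 1 tested probe set, 26 fell at 30 h, and in 25 of these every probe set was below 0. The exception was Tnpo1, at -1.20, -0.39 and 0.03. Of 3 that rose, Kpna6 and Ipo9 had all probe sets above 0 and Xpo7 did not. Among genes not called at 30 h, Kpna1 (-0.24 to 0.18) and Tnpo2 (-0.07 to 0.36) had probe sets of both signs. Probe sets called in opposite directions were those of Nup50 and Xpo7 at 21 h versus 0 h. For Xpo7 this also held at 30 h versus 0 h and versus 14 h. For Ran the probe set used gave -0.26 and another gave -1.35, and for Nup62 the used gave -0.20 and the others -0.76 to -1.19. Kpnb1 had -1.01 on the probe set used and -1.75, -2.31 and -3.33 on the others, and Kpna4 had -0.01 and -0.88. The probe sets used for Ran, Nup62 and Kpnb1 have names ending in _x_at. For Nup43 the other probe set differed from 0 h by -0.02 at 7 h, -0.14 at 14 h and -0.24 at 21 h, none called, and by -1.64 at 30 h.

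Other genes of the pore and of transport were read for comparison, beside the 33% of all tested genes that fell and the 36.6% that rose at 30 h. Of 11 tested pore genes outside the symbol rule, 7 fell and 1 rose at 30 h. Ndc1, a membrane nucleoporin, fell by 2.57 (SE 0.0673, limma, adjusted p = 1.77e-14) and Rae1, a messenger RNA export factor at the pore, by 1.05. Ahctf1, which seeds pores on chromatin, rose by 0.70 at 3 h and stood at 0.22 at 30 h. Of 9 tested transport genes outside the rule, 5 fell and 1 rose. Rangrf, a Ran-binding factor, fell by 3.52 (SE 0.0949, adjusted p = 2.41e-14), Phax, the adaptor for small nuclear RNA export, fell by 1.06, and Ncbp1, a subunit of the nuclear cap-binding complex, rose by 0.90.

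Messenger RNA export genes and genes of the nuclear envelope were given as counts. At 30 h 33% of all tested genes fell and 36.6% rose. Of 15 tested messenger RNA export genes, 9 fell and 3 rose at 30 h, among them the adaptor Alyref (-1.61), the THO subunit Thoc3 (-1.42), Nxt2 (0.62), a cofactor of the export receptor, and Mcm3ap (0.32). Of 14 tested envelope and lamina genes, 6 fell and 4 rose, with Syne1 (-2.52), a linker of the envelope to the cytoskeleton, and Lmnb1 (-2.06), lamin B1, lowest. Sun2, a protein of the inner membrane, rose by 2.42 and Lmna, the gene of lamins A and C, by 2.22.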

How the data were processed

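Per the labels' protocols, RNA was isolated with Trizol, given a biotin label and read on Affymetrix arrays. The authors deposited log2 values of 45101 probe sets for each array. Values lay between 0.88 and 14.37 and array medians between 4.04 and 4.09, so arrays share a scale set before deposit and each change is relative to it. For background correction, probe summary and normalization, the methods were not given in the sources used here. Detection calls were not used here, and the number of arrays limits the precision.

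Of the probe sets, 64 controls were left out. For the rest, the platform annotation gave 34945 probe sets with 1 gene, 932 with several and 9160 with none, and no gene was named from a probe set with several. Entrez identifiers of 34741 were found in a RefSeq table, which changed 0 symbols. The 46 genes have 119 probe sets of their own, and 3 more probe sets match a member together with another gene. The probe set with the highest mean stood for a gene, and genes above the 40th percentile of an array on 3 or more arrays were tested.

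The 18 arrays entered 1 fit (limma 3.58.1, R 4.3.3) of a mean for each time, with 12 residual degrees of freedom. Contrasts were two-sided, p-values were adjusted over the 12719 tested genes (Benjamini-Hochberg), with 0.05 as the threshold for a call. The fit was tested on simulated data.

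The members, gene lists, tests and alternatives were chosen with earlier results of these data known. Values on every array are given for called members without overlap of arrays: the 6 largest changes in each direction at 30 h versus 0 h (only 5 rises qualified), and the 3 largest in each direction at 3 h and at 30 h versus 14 h. Added to them were Xpo7, Kpna2, Kpnb1, Xpo1, Cse1l, Ran, Rcc1, Nup98, Nup210 and Nup107, picked for their roles. Outside the symbol rule, the 2 largest called changes each way of a list are named. Alternatives were quantile normalization, a shift to equal hybridisation controls, no filter, a 60th-percentile filter, the mean of probe sets, leaving out probe sets named _x_at or _s_at, a variance with trend and robust estimation, a block for the replicate number, only the arrays of the times compared, and leaving out each array. Arrays were compared for identity, and 0 pairs held identical values.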

Additional observations from a re-analysis of the deposited data

How the results depend on the processing

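Shifting arrays to equal hybridisation controls moved the counts of members called. They became 0 higher and 0 lower at 3 h, 0 and 1 at 7 h, 1 and 2 at 14 h, 0 and 16 at 21 h, 21 lower at 30 h, 0 higher at 30 h versus 14 h, and 27 by the F test. The cause was not tested. That shift turned the sign of 18 members at 14 h and of 5 at 30 h (also of 8 at 3 h and 3 at 7 h). Among those called on the deposited scale these were, at 14 h, Ipo13 (0.021), Kpna1 (0.013), Kpna3 (0.058), Nup155 (0.047), Nup54 (0.0024), Nup98 (0.055) and Xpo1 (0.058), and, at 30 h, Kpna2 (0.016). With the mean of probe sets, the sign turned for Ipo5 at 3 h (-0.22), Ipo7 at 14 h (-0.23), Nup160 at 21 h (0.30) and Nup50 at 21 h (-0.021), the rises at 3 h became 1 and those at 14 h 5. Leaving out _x_at and _s_at probe sets turned Ipo9 at 30 h versus 14 h (-0.10) and gave 4 rises at 14 h. With no filter there were 2 rises and 3 falls at 3 h and 1 rise at 7 h. With a trended and robust variance there were 4 rises at 7 h and 4 at 14 h, and with the 60th-percentile filter 4 at 14 h. Fitting the 6 arrays compared alone gave 2 rises at 3 h and at 21 h, and 1 at 7 h and at 14 h. Leaving out each array in turn gave 2 to 5 rises and 3 to 5 falls at 3 h, 1 to 2 and 8 to 11 at 7 h, 1 to 3 and 19 to 22 at 14 h, 2 to 5 and 23 to 24 at 21 h, 4 to 5 and 34 at 30 h, 3 to 6 and 31 to 33 at 30 h versus 14 h, and 40 to 42 by the F test. Of the 34 falls at 30 h, 33 were called under each alternative other than control scaling, and Nup107 had no value without _s_at probe sets. The labels do not say whether the replicate numbers pair the arrays. Same-numbered arrays correlated at a mean r of 0.012 in their deviations from the time means (45 pairs, -0.17 to 0.19). Only 4 of 18 arrays correlated best with their own number. No pairing showed in these values, which cannot exclude it. With the replicate number as a block, the rises at 7 h became 1, and the falls at 30 h stayed at 34.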
